A study of Mus musculus with 19 samples.

Results

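The 7 genes described here, listed as atrial muscle genes, were followed through the left ventricle of mice with a transient cardiomyopathy. They are Sln, Myl7, Myl4, Kcnk3, Kcnj3, Bmp10 and Dkk3. The genes were chosen by name, as every probe whose platform gene symbol or older alias is one of these 7. The rule found 9 of the 25697 probes on the array, for 7 of 16593 genes with a symbol: 3 probes for Dkk3 and 1 for each other gene. Tissue labelled left ventricular myocardium came from male MerCreMer mice. These carry a Cre recombinase coupled to a mutated estrogen receptor and expressed from a cardiac-specific myosin heavy chain promoter, which makes recombination in heart muscle cells depend on tamoxifen. The mice had been back-crossed to C57Bl6/J and were 12 to 20 weeks old. Tamoxifen free base in peanut oil was injected intraperitoneally at 1.0 mg (40 mg/kg) a day, for at most 5 days. Expression was measured on Illumina bead arrays, which report a fluorescence intensity for each probe.

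The 19 arrays fall into 5 groups. The control group (n = 5) is the non-failing baseline. The day 2 group (n = 4) had 2 days of tamoxifen and the day 3 group (n = 3) had 3 days. The day 10 group (n = 3) had 5 days of tamoxifen and 5 days without, and day 10 is given by the submitters as the time of greatest dysfunction. The day 28 group (n = 4) had 5 days of tamoxifen and 23 days without, by when heart function is said to have recovered. Every group carries the MerCreMer transgene, and no group had oil alone or tamoxifen without Cre, so effects of tamoxifen, of Cre and of the cardiomyopathy cannot be told apart. The comparisons ask how the ventricular level of atrial genes moved as the disease came and went, and how far the genes moved together from one array to the next.

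The atria and ventricles of the heart run on different versions of the same machinery. Atrial muscle builds its myosin with its own pair of light chains, restrains the calcium pump with sarcolipin where ventricular muscle uses phospholamban, and carries potassium channels that respond to acetylcholine from the vagus nerve. In the developing ventricle some of these atrial versions are also made, and they are switched off as the ventricle matures. Ventricular tissue cut near the valves can carry some atrial muscle, and in bulk tissue fewer cells of a type and less RNA per cell cannot be told apart.

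The promoters of both light chain genes are shown because their transcripts moved together from array to array, as described below. Each is the 250 bases before the transcript start in RefSeq (build GRCm38.p6), written 5′ to 3′ on the strand of the gene. Myl7 lies on the minus strand at chr11:5898783-5899032 and Myl4 on the plus strand at chr11:104550413-104550662. Capitals in the Myl7 sequence mark a CArG box, the motif bound by serum response factor, and the letters GATAA of a GATA factor motif.
Myl7: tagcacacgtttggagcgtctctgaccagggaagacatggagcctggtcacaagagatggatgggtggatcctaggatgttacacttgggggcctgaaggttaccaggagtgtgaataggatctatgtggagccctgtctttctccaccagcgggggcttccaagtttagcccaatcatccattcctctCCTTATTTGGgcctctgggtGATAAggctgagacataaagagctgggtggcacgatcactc
Myl4: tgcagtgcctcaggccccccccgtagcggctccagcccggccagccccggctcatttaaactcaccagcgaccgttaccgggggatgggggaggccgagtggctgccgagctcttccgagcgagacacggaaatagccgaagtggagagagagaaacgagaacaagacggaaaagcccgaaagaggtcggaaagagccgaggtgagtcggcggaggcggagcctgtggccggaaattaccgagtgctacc

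Both strands were searched for 6 motifs in 32851 promoters of this length. The CArG box starts 61 bases before the Myl7 transcript start and GATAA 41 bases before it, and neither was in the Myl4 window. A CArG box was found in 1.47% of all promoters and GATAA in 22.6%. Both windows hold AAGTG, the core of an NKX2-5 motif, which 40.7% of promoters hold. AGGTGT (a TBX5 motif, in 11.8% of promoters) was found in the Kcnj3 window, and GATAA at 2 places in the Bmp10 window. AGGTCA (a binding motif of COUP-TF factors, 14.0%) and the MEF2 motif (0.508%) were in none of the 4 member windows available. Sln, Kcnk3 and Dkk3 had no entry in the promoter table. A match is a match of letters alone.

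All arrays carried the same set of deposited intensities, from 116.032 to 57814.4 with a median of 191.479, as the normalization fixes. Controls 4 and 5 stood apart from controls 1 to 3 on the first principal component (-18.1 and -18.6 against -33.0 to -30.4) and the second (20.5 and 20.1 against 1.59 to 4.38). On the second they lay with the arrays of day 10 (19.7 to 24.1) and day 28 (21.1 to 23.1). No slide or date is given. Differences from control at day 3 and day 10, and those of Kcnk3 and Dkk3 at day 28, are therefore also given with controls 1 to 3 alone, a setting chosen after seeing the data. Of the ventricular myosin light chains, Myl2 lay at log2 15.47 to 15.82 and Myl3 at 15.55 to 15.82 over the 19 arrays. Since 15.8 is the top of the scale, these probes could not register a share of other tissue. Levels below are log2 of the background-corrected intensity plus 50, given as mean ± SD. Differences are from limma with Benjamini-Hochberg adjustment over the 19273 probes tested, with the SE after ±, and were called at an adjusted p under 0.05. Since 50 is added, a fold change of a dim probe is understated.

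Sln encodes sarcolipin, a short membrane peptide that inhibits the calcium pump of the sarcoplasmic reticulum. Its deposited intensity in controls 1 to 5 was 688, 1589, 220.1, 459 and 378. In the 4 arrays of day 2 it was 781, 189.7, 241 and 230.2, and in the 3 of day 3 it was 2639, 3595 and 768. Of the day 3 arrays, 2 lay above every control and the third lay between controls 1 and 2. At day 10 the 3 arrays read 203, 175 and 168, all below every control, and at day 28 the 4 arrays read 809, 166, 754 and 486. The day 28 group thus held both values near the upper controls and 1 value below all of them. The readings of 175 and 168 at day 10 and 166 at day 28 lay below the median probe (191.479), and 203 lay just above it. So near the lowest signals, the size of a fall and the spread between arrays may be understated.

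Sln rose at day 3 from 8.75 ± 1.26 (SD, n = 5) in control to 10.84 ± 1.25 (n = 3), a difference of 2.09 ± 0.68 or 4.26-fold (adjusted p = 0.0216). It then fell by 4.16 ± 0.76 from day 3 to day 10 (17.8-fold, adjusted p = 0.000132), to 6.69 ± 0.25 (n = 3). That was 2.07 ± 0.68 below control (adjusted p = 0.0181). The order of the group means was day 3, control, day 28 (8.51 ± 1.42, n = 4), day 2 (7.72 ± 1.18, n = 4) and day 10. Control, day 28 and day 2 lay within 1 SD of each other. With controls 1 to 3 alone the day 3 rise was 1.86 and not called (adjusted p = 0.0850), while at day 10 it fell by 2.30, which was called (0.0230). The day 10 call over all controls was lost when control 2 (adjusted p = 0.0568), day 10 replicate 2 (0.0567) or day 10 replicate 3 (0.0623) was left out.

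Other genes of the same calcium store went partly against Sln at day 3 and mostly fell with it at day 10. Pln, phospholamban, the ventricular inhibitor of the same pump, fell by 3.50 at day 3 (adjusted p = 6.51e-09), when Sln rose, and was 1.20 below control at day 10 (0.00306). Atp2a2, the cardiac pump itself, differed by -0.21 at day 3 (adjusted p = 0.168) and fell by 0.76 at day 10 (5.96e-06). Its control mean of 15.74 lay near the top of the scale, so these differences may be understated. Of 6 such genes tested, 1 was higher and 3 lower at day 3, with a median difference of -0.61, and 0 were higher and 5 lower at day 10, with a median of -0.98. Hrc, a calcium-binding protein of the reticulum, fell by 2.72 at day 10 (adjusted p = 7.56e-09). At day 28 none of the 6 was called against control, where 1.8% of all probes were.

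Myl7 encodes the regulatory myosin light chain of the atrium. Its intensity was 1188, 2788, 205, 819 and 327 in controls 1 to 5, a span of more than an order of magnitude inside 1 group. At day 2 it read 1773, 201, 281 and 229, and at day 3 it read 2907, 5505 and 1680.1. The 2 upper day 3 arrays lay above every control. At day 10 the values were 315, 227 and 181, and at day 28 they were 888, 182, 1316 and 759. The day 10 arrays overlapped the lower controls, and replicate 2 of day 28 was again the low one. The readings of 181 at day 10 and 182 at day 28 lay below the median probe (191.479), so the size of a fall to them may be understated.

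Myl7 was 2.31 ± 0.84 higher at day 3 than in control (4.94-fold, adjusted p = 0.0427), at 11.51 ± 0.88 (n = 3) against 9.20 ± 1.75 (n = 5). From day 3 to day 10 it fell by 4.24 ± 0.94 (18.9-fold, adjusted p = 0.00105), to 7.26 ± 0.61 (n = 3). Day 10 itself was 1.94 ± 0.84 below control, which was not called (adjusted p = 0.0793). The order of means was day 3, control, day 28 (9.01 ± 1.58, n = 4), day 2 (8.14 ± 1.75, n = 4) and day 10. Days 28 and 2 lay within 1 SD of control. With controls 1 to 3 alone the differences were 2.00 at day 3 (adjusted p = 0.134) and -2.24 at day 10 (0.0730), neither called. The day 10 difference over the other 4 controls was called without control 3 (adjusted p = 0.0192) or control 5 (0.0482).

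Myl4 encodes the essential light chain of the atrium and of the embryonic ventricle. In controls 1 to 5 its intensity was 2261, 4393, 509, 2020.0 and 632. At day 2 it was 3224, 566, 1074 and 877, and at day 3 it was 6016, 9405 and 3885. Every day 3 array lay above every day 2 array, and 2 of 3 lay above every control. At day 10 the arrays read 1009, 1013 and 787, inside the control range, and at day 28 they read 1869, 455, 3081 and 1683.

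Myl4 was 2.15 ± 0.64 higher at day 3 than in control (4.43-fold, adjusted p = 0.0127), at 12.54 ± 0.65 (n = 3) against 10.39 ± 1.41 (n = 5). It fell by 2.81 ± 0.71 from day 3 to day 10 (6.99-fold, adjusted p = 0.00346), to 9.73 ± 0.23 (n = 3). Day 28 (10.39 ± 1.28, n = 4) and control, which were level, then day 2 (10.04 ± 1.14, n = 4) and day 10 followed day 3. They lay within 1 control SD of one another. The day 3 difference was 1.90 with controls 1 to 3 alone (adjusted p = 0.0483), and that of day 10 was -0.91 (0.355). Among 7 other myosin chains and light chain kinases tested, 1 was higher and 1 lower at day 3, with a median of -0.12. Myl6, a light chain of non-muscle and smooth muscle myosin, rose by 1.03 (adjusted p = 0.00046), and Mylk3, the kinase of the cardiac regulatory light chain, fell by 1.89 (3.14e-05). At day 10 the list had 1 higher and 3 lower, with a median of -0.17. Myh6, the main adult heavy chain of mouse heart, fell by 1.37 (adjusted p = 1.82e-07).

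**Figure D1:**
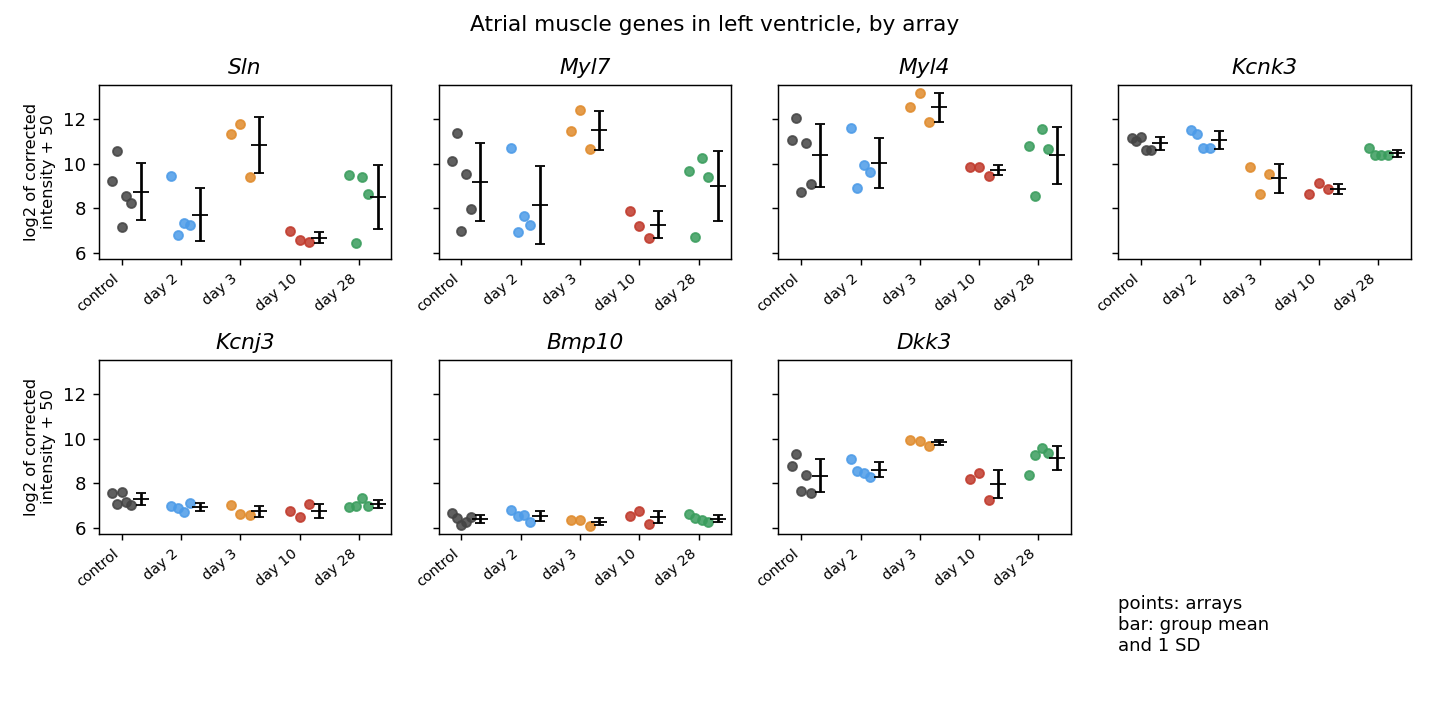
Log2 of corrected intensity plus 50 (y axis) of the main probe of each gene on every array, by group (x axis); points are arrays, and the bar beside them is the group mean and 1 SD. Sln, Myl7 and Myl4 spread over several log2 units within a group and are highest at day 3, while Kcnk3 is low at days 3 and 10; heights are to be compared within a gene, not between genes.

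Kcnk3 encodes TASK-1, a two-pore potassium channel that carries a background current and in the human heart is mainly atrial. Its intensity in controls 1 to 5 was 2397, 2189.8, 2418, 1658 and 1644. It was 2975, 2679, 1754 and 1771 at day 2, then 1018, 475 and 826 at day 3. At day 10 it was 482, 636 and 546, and at day 28 it was 1757, 1408, 1443 and 1412. The arrays of days 3 and 10 lay below every array of the other 3 groups.

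Kcnk3 fell by 1.58 ± 0.23 at day 3 (2.99-fold, adjusted p = 7.77e-06), from 10.93 ± 0.29 (n = 5) to 9.35 ± 0.64 (n = 3). At day 10 it was 2.05 ± 0.23 below control (4.13-fold, adjusted p = 1.09e-07), at 8.88 ± 0.23 (n = 3), and the difference of -0.47 ± 0.25 from day 3 to day 10 was not called (adjusted p = 0.178). Without day 3 replicate 2 it was -0.83 and called (adjusted p = 0.00743). From day 10 to day 28 it rose by 1.59 ± 0.24 (3.00-fold, adjusted p = 1.16e-05), to 10.47 ± 0.16 (n = 4). Day 28 stood 0.46 ± 0.21 below control, which was not called (adjusted p = 0.275), although 3 of 4 arrays lay below every control. The order of means was day 2 (11.07 ± 0.41, n = 4), control, day 28, day 3 and day 10. Kcnk3 fell by 1.79 at day 3 and by 2.25 at day 10 when only controls 1 to 3 were used, both called, and its day 28 difference was then -0.67 (adjusted p = 0.0654). Kcnk3 thus fell at day 3 while Sln, Myl7 and Myl4 rose. Of 7 other two-pore channels, 2 were higher and 0 lower at day 3 (median 0.06), and 2 were higher and 0 lower at day 10 (median 0.01). Kcnk6 rose by 0.45 at day 3 (adjusted p = 0.0235) and 0.60 at day 10 (0.00185), Kcnk1 rose by 0.47 at day 3 (0.0330), and Kcnk13 rose by 1.32 at day 10 (8.26e-06).

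Kcnj3 encodes a pore subunit of the channel that acetylcholine opens in the atrium. Its probe was dim, with 14 of 19 arrays above the median probe. The intensities were 266, 213, 275, 223 and 209 in controls, 205, 198, 182 and 218 at day 2, and 209, 177 and 172 at day 3. At day 10 they were 185, 167 and 211.5, and at day 28 they were 200.5, 203, 238 and 205. The groups differ by small steps and overlap, with controls 1 and 3 the highest 2 arrays of all.

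Kcnj3 fell by 0.55 ± 0.16 at day 3 (adjusted p = 0.0131) and by 0.53 ± 0.16 at day 10 (0.0127), from 7.29 ± 0.27 (n = 5) to 6.74 ± 0.26 (n = 3) and 6.76 ± 0.29 (n = 3). In each case 2 of 3 arrays lay below every control. Day 28 (7.06 ± 0.18, n = 4) and day 2 (6.93 ± 0.18, n = 4) lay between, and neither was called against control. Kcnj3 fell by 0.68 and by 0.66 when only controls 1 to 3 were used, both called. The day 3 call was lost without day 3 replicate 2 (adjusted p = 0.0654) or replicate 3 (0.0834), and the day 10 call without day 10 replicate 2 (0.119). Kcnj5, which encodes the partner subunit, differed by -0.20 at day 3 (adjusted p = 0.522) and -0.34 at day 10 (0.205). The 8 tested genes of the acetylcholine potassium current had 3 higher and 2 lower at day 3 (median -0.08) and 3 higher and 2 lower at day 10 (median -0.18). Gnb1, a beta subunit of the G proteins that open the channel, rose by 0.44 at day 3 (adjusted p = 0.0249) and by 1.38 at day 10 (5.3e-08). Chrm2, the muscarinic receptor that acts on this channel, fell by 1.61 at day 3 (adjusted p = 0.000122). Rgs4, which turns off the G protein signal, fell by 1.02 at day 10 (adjusted p = 3.77e-05).

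Bmp10 encodes a ligand of the BMP family that in the adult heart comes mainly from the right atrium. Its probe was below the median probe on all 19 arrays, between 146 and 188, and its group means ran from 6.27 ± 0.16 (day 3, n = 3) to 6.54 ± 0.22 (day 2, n = 4). No comparison called it, and differences from control lay between -0.13 and 0.14 with SEs of 0.14 to 0.15. With controls 1 to 3 alone the differences lay between -0.14 and 0.13. A log2 change on this probe as large as that of Sln at day 3 would lie far outside these SEs. On so dim a probe the same fold rise of a scarce transcript could appear far smaller. A fall from this level could not be measured. Acvrl1, its endothelial receptor, differed by -0.10 at day 3 (adjusted p = 0.735) and -0.22 at day 10 (0.342). Of 13 tested receptor and target genes of BMP9 and BMP10, 2 were higher and 2 lower at day 3 (median 0.00), and 0 were higher and 3 lower at day 10 (median -0.22). Bmpr1a, a type I receptor of the family, fell by 1.73 at day 3 (adjusted p = 1.18e-08). Tcap, a Z-disc protein, fell by 1.37 at day 10 (1.84e-07).

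Dkk3 encodes a secreted glycoprotein of the Dickkopf family. Its brightest probe read 514, 720.1, 281, 413 and 267 in controls, 627, 457, 436 and 393 at day 2, and 1051, 1027 and 901 at day 3. At day 10 it read 375, 430.2 and 230.0, and at day 28 it read 408, 704, 851 and 729. All 3 day 3 arrays lay above every other array, and they lay close together.

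Dkk3 rose by 1.49 ± 0.33 at day 3 (2.81-fold, adjusted p = 0.000992), from 8.34 ± 0.74 (n = 5) to 9.83 ± 0.13 (n = 3). It fell by 1.86 ± 0.36 from day 3 to day 10 (3.63-fold, adjusted p = 0.000292), to 7.98 ± 0.64 (n = 3), and rose by 1.17 ± 0.34 from day 10 to day 28 (0.00983). That last call was lost without day 10 replicate 3 (0.81, adjusted p = 0.105). Day 28 (9.15 ± 0.54, n = 4) was 0.81 ± 0.30 above control, which was not called (adjusted p = 0.173). The order of means was day 3, day 28, day 2 (8.61 ± 0.34, n = 4), control and day 10. Days 2 and 10 lay within 1 SD of control. The day 3 rise was 1.25 with controls 1 to 3 alone (adjusted p = 0.00901), and the differences were -0.61 at day 10 (0.186) and 0.56 at day 28 (0.313). A second Dkk3 probe gave 1.34 ± 0.35 at day 3 (adjusted p = 0.00481). The third was at the level of the median probe or below it and gave 0.11 ± 0.14 (0.638). Of 9 other Dickkopf and Wnt genes tested, 1 was higher and 1 lower at day 3 (median -0.25), and 0 were higher and 3 lower at day 10 (median -0.23). Axin2, a feedback target of Wnt signalling, rose by 1.29 at day 3 (adjusted p = 3.4e-06), and Kremen1, a Dickkopf receptor, fell by 1.09 at day 10 (0.000512).

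Counted over the 7 genes, none was called at day 2 against control, with a median difference of -0.35. Of all probes, 6.64% were called there, 3.39% higher and 3.24% lower. At day 3, 4 were higher (Sln, Myl7, Myl4 and Dkk3) and 2 lower (Kcnk3 and Kcnj3), where 28.4% of all probes were called, 14.1% higher and 14.3% lower. The median of the 7 was 1.49, beside -0.02 over all probes. At day 10, 0 were higher and 3 lower (Sln, Kcnk3 and Kcnj3) against 35.8% of all probes, 17.7% higher and 18.1% lower, with medians of -0.66 and -0.03. At day 28 none was called, where 1.8% of all probes were, 1.11% higher and 0.69% lower, and the differences from control ran from -0.46 (Kcnk3) to 0.81 (Dkk3).

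Between successive times, 4 genes were higher at day 3 than at day 2 and 1 was lower, where 18.7% of all probes were called, 8.74% higher and 10% lower. Sln differed by 3.13 ± 0.71 (8.75-fold, adjusted p = 0.00258), Myl7 by 3.36 ± 0.88 (10.3-fold, 0.00847) and Myl4 by 2.50 ± 0.67 (5.66-fold, 0.00957). Without day 3 replicate 2, Myl7 (2.91, adjusted p = 0.0561) and Myl4 (2.18, 0.0600) were not called. From day 3 to day 10, 4 fell (Sln, Myl7, Myl4 and Dkk3) against 31.4% of all probes, 15.4% in that direction. For each of the 4 no day 10 array reached the lowest day 3 array. No share of all probes apart in this way is at hand, so that count cannot be weighed. From day 10 to day 28, 2 rose (Kcnk3 and Dkk3) against 30% of all probes, 15% in that direction. Sln missed the threshold there (1.82 ± 0.71, adjusted p = 0.0540), with 3 of 4 day 28 arrays above every day 10 array and 1 below all of them. The comparisons with control share the same 5 control arrays, and successive comparisons share a group.

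**Figure D2:**
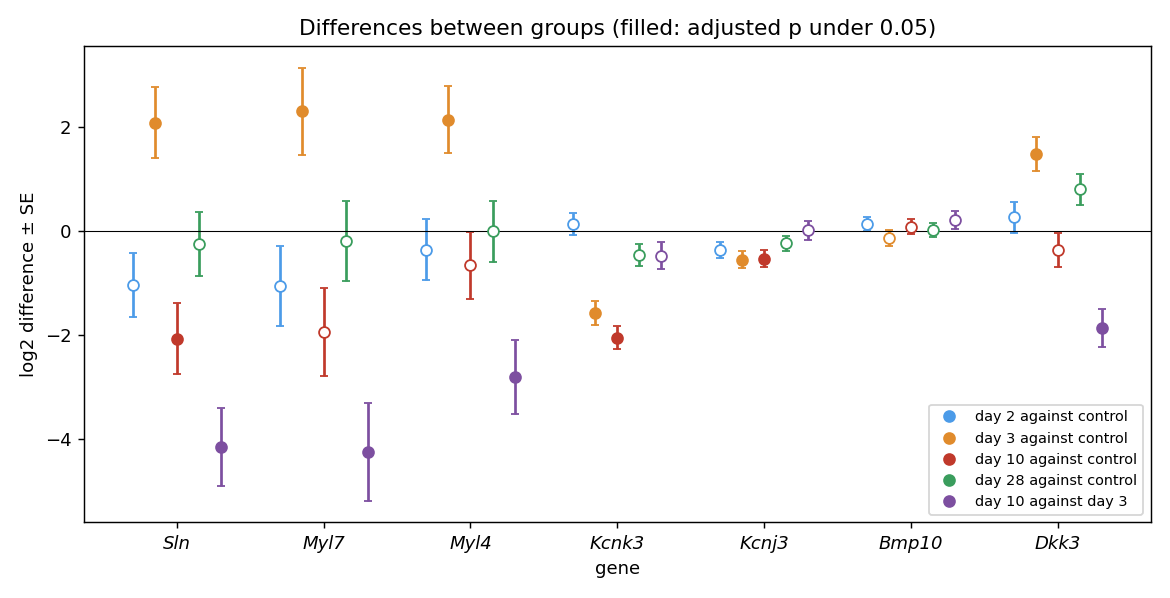
Log2 difference (y axis) with its SE for each of the 7 genes (x axis) in 5 comparisons, named in the legend; filled points have an adjusted p under 0.05. Sln, Myl7, Myl4 and Dkk3 lie above 0 at day 3 and fall from day 3 to day 10, while Kcnk3 lies below 0 at both times.

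Apart from those of Dkk3 and Kcnk3, the calls at day 3 rested on few arrays. Without day 3 replicate 2, the adjusted p was 0.137 for Sln, 0.185 for Myl7 and 0.0748 for Myl4, and 2 of the 7 genes were called, Dkk3 and Kcnk3. Myl7 lost its call in 5 of the 8 fits that left out 1 array of either group, Sln in 3, Kcnj3 in 2 and Myl4 in 1. Sln, Myl7 and Myl4 stayed above 0 in all of these fits, at 1.62 to 2.80 for Sln, 1.75 to 2.86 for Myl7 and 1.74 to 2.57 for Myl4. Kcnk3 kept its call in each of them, at -1.84 to -1.22, as did Dkk3, at 1.30 to 1.74. The falls from day 3 to day 10 of Sln, Myl7, Myl4 and Dkk3 were called in every fit run.

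**Figure D3:**
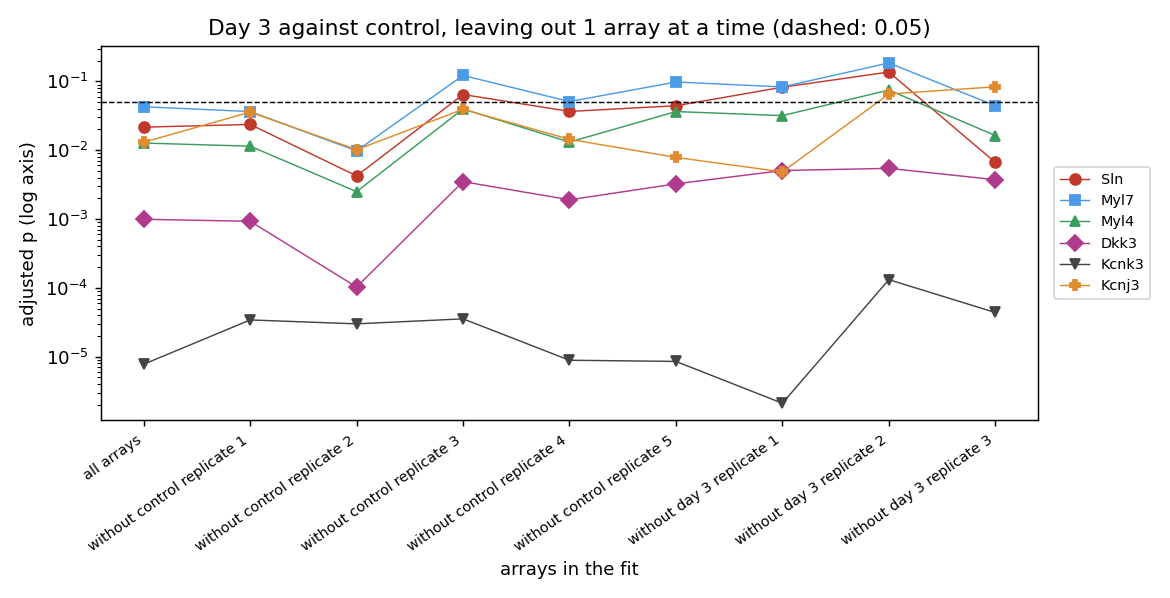
Adjusted p of the day 3 against control difference (y axis, log scale) for 6 genes with all arrays and with each array of either group left out in turn (x axis); the dashed line is 0.05. Kcnk3 and Dkk3 stay below the line throughout, and Sln, Myl7, Myl4 and Kcnj3 lie above it when day 3 replicate 2 is left out.

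The spread between arrays of a group was wide for some of these genes. The within-group SD of Myl7 was 1.49, the highest of the 19273 probes tested. Sln followed at rank 3 (1.19) and Myl4 at rank 4 (1.12), where the median probe had 0.204 and the 99th percentile was 0.515. The other probe among the top 4 was that of Dynll2 (1.35). Dkk3 was at rank 146 (0.554), Kcnk3 at 827 (0.365), Kcnj3 at 5335 (0.240) and Bmp10 at 9640 (0.204). Between the highest and the lowest of the 19 arrays Myl7 differed 30.5-fold, Sln 21.7-fold and Myl4 20.6-fold, all with day 3 replicate 2 the highest, while Kcnk3 differed 6.26-fold, with that same array the lowest.

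The same arrays were high and low for Sln, Myl7 and Myl4. In the controls all 3 genes ran in the order 2, 1, 4, 5, 3 from the highest array to the lowest, at day 2 in the order 1, 3, 4, 2 and at day 3 in the order 2, 1, 3. At days 10 and 28 the orders differed among the genes, but the lowest array was the same for all 3, replicate 3 at day 10 and replicate 2 at day 28. Array numbers are labels and have no order in time.

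**Figure D4:**
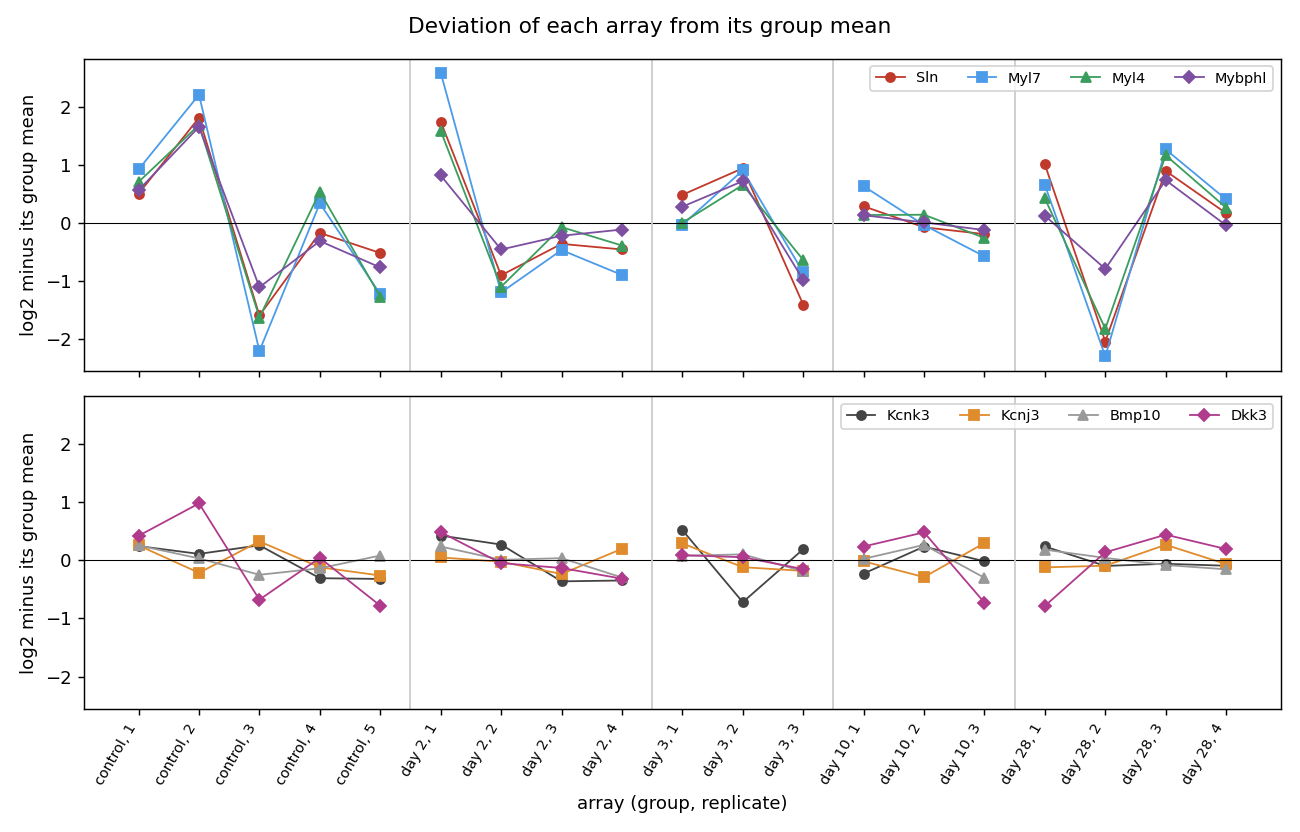
Deviation of each array from its group mean in log2 units (y axis), array by array (x axis, group and replicate), for Sln, Myl7, Myl4 and Mybphl (upper panel) and Kcnk3, Kcnj3, Bmp10 and Dkk3 (lower panel). The upper genes rise and fall together within the groups, with Myl7 highest in day 2 replicate 1 and control 2 and lowest in day 28 replicate 2 and control 3; of the lower genes Dkk3 follows them in part.

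With group means removed, Sln and Myl7 correlated at r = 0.95 and rho = 0.95 over the 19 arrays. Sln and Myl4 correlated at r = 0.93 (rho = 0.93) and Myl7 and Myl4 at r = 0.98 (rho = 0.98). For each of these 3 pairs the 2-sided permutation p, with values permuted within groups, was 1e-05 for r and for rho, the smallest that 100000 permutations can give, or 7.0e-05 after adjustment over the 21 pairs of the 7 genes. Leaving out the 2 arrays farthest from the median of the first gene gave r = 0.93, 0.89 and 0.97. These 3 were the pairs of the 21 that passed.

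Dkk3 correlated with Myl7 at r = 0.62 (rho = 0.62, permutation p = 0.0155 for r and 0.0149 for rho) and with Myl4 at r = 0.62 (rho = 0.64), neither past the threshold after adjustment (0.0813 and 0.0888 for r). Without the 2 farthest arrays these were 0.72 and 0.70. Its r with Sln was 0.48 (rho = 0.53, adjusted permutation p = 0.196 and 0.115). Bmp10 reached r = 0.46 with Sln (rho = 0.47, adjusted permutation p = 0.196 and 0.143). Kcnk3 had r = 0.08 with Sln, 0.10 with Myl7 and 0.06 with Myl4 (rho 0.16, 0.13 and 0.08, adjusted permutation p of 0.92 for each r and 0.82 to 0.95 for rho). Kcnj3 had r of 0.00, -0.06 and -0.02 with the same genes. No batch is labelled, so no value within a batch can be given. All 19 arrays share 1 normalization.

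**Figure D5:**
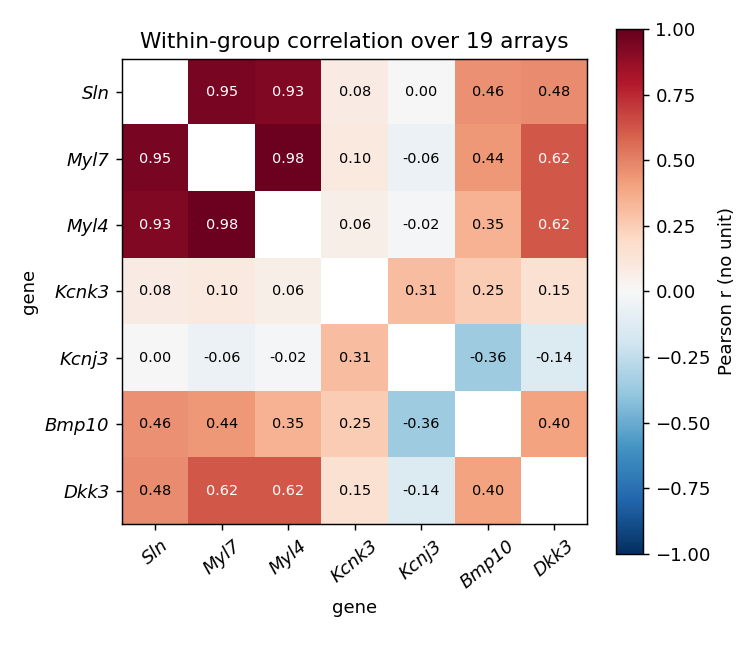
Pearson r between each pair of the 7 genes (rows and columns, colour scale from -1 to 1) over 19 arrays after group means were removed; the diagonal is left blank. Sln, Myl7 and Myl4 form a block at 0.93 to 0.98, and Kcnk3 and Kcnj3 lie near 0 with that block.

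Of 12642 other genes, the one whose deviations were most like those of Sln, of Myl7 and of Myl4 was in each case Mybphl, at r = 0.92, 0.90 and 0.90. Mybphl encodes a myosin-binding protein that in the mouse heart is found mainly in the atria, and these r values are descriptions over the same 19 arrays. Its intensity was 304, 560.04, 149, 201 and 168 in controls and 673, 886 and 326 at day 3. At day 10 it was 169, 161 and 154. It rose by 1.68 ± 0.45 at day 3 (adjusted p = 0.00621) and fell by 2.56 ± 0.51 from day 3 to day 10 (0.000323), with the same arrays high and low as for Myl7.

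The next genes by likeness to Sln were Sult2b1 (0.84), Zfp282 (0.82), Chad (0.81) and Spen (0.80). For Myl7 they were Sphkap (0.81), Spen (0.80), Zfp282 (0.80) and Chad (0.80), and for Myl4 the next was Hoxa2 (0.84). None of these 6 was called at day 3 against control. For Kcnk3 the most like were Rilpl1 (0.94) and Ap5s1 (0.94), which both fell at day 3, by 0.71 (adjusted p = 0.000887) and 1.55 (2.02e-08). They were Olfr1205 (0.83) and Pitpnm3 (0.81) for Kcnj3, Rtf2 (0.86) and Klk6 (0.79) for Bmp10, and Scn8a (0.83) and Mfsd7a (0.78) for Dkk3. An r of 0.8 or more was reached by 4 genes with Sln, 3 with Myl7, 4 with Myl4, 53 with Kcnk3, 2 with Kcnj3, 1 with Bmp10 and 1 with Dkk3. The median r over all genes lay between -0.01 and 0.02 for each.

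Other genes listed as atrial moved in both directions, and the part of atrial tissue in these values was not tested. Of 16 such genes tested, 5 were higher and 2 lower at day 3 (median 0.13), where 14.1% of all probes were higher and 14.3% lower. At day 10, 2 were higher and 4 lower (median -0.21), where 17.7% of all probes were higher and 18.1% lower. These shares of all probes stand beside every list of genes counted against control at day 3 and day 10. Clu, a secreted chaperone, rose at both times, by 1.29 (adjusted p = 5.5e-07) and 1.57 (1.86e-08). Stard10, a lipid transfer protein, rose by 0.69 at day 3 (adjusted p = 0.000541) and fell by 0.95 at day 10 (7.52e-06), and Angpt1, a ligand of the Tie2 receptor, fell by 1.09 at day 3 (2.06e-05). At day 28 the list had 0 higher and 1 lower, where 1.11% of all probes were higher and 0.69% lower. At day 2 it also had 0 and 1, where 3.39% of all probes were higher and 3.24% lower. Hamp, hepcidin, an iron hormone also made in the heart, was 3.33 ± 0.61 higher at day 3 (adjusted p = 0.000172), with an SD of 2.11 (n = 3) there. Within groups, 1 of the 16 genes correlated with Myl7 after adjustment over 38 marker genes, Mybphl (permutation p 1e-05, adjusted 0.00038 for r and for rho), and the median r of the 16 was -0.11. Of 10 ventricular genes 0 passed (median 0.01), and of 12 skeletal muscle genes 0 passed (median -0.15).

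Nppa encodes atrial natriuretic peptide, which atrial muscle makes throughout life and stressed ventricle makes again. Its mean rose at day 3 from 13.88 ± 0.78 (n = 5) to 14.89 ± 0.22 (n = 3), called just under the threshold (adjusted p = 0.0489). All 3 day 3 arrays (26221.5 to 35373) lay below control 2 (38838). At day 10, when Sln was lowest, Nppa stood at 15.64 ± 0.03 (n = 3), 1.77 ± 0.38 above control (adjusted p = 0.000589). Its day 10 intensities (50618 to 52684) lay near the top of the scale, so the size of that rise and its SD may be understated. Within groups its r with Myl7 was -0.17 (rho = -0.27, permutation p = 0.599 and 0.322, 0.988 and 0.960 after adjustment), and 0.27 without the 2 farthest arrays. Control 2, the highest control for Myl7, was also the highest for Nppa (38838). At days 2 and 28 the array with the highest Nppa (33103 and 43817) was the one with the lowest Myl7.

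Values of other cell types that moved at the same times stand beside these results, and their part in them was not tested. Markers of ventricular muscle had 1 higher and 5 lower of 10 at day 3 (median -0.45), and 0 higher and 4 lower at day 10 (median -0.21). Gja1, the main gap junction protein of ventricular muscle, fell by 1.91 at day 3 (adjusted p = 2.07e-08), and Kcnip2, a subunit of the transient outward current, fell by 1.26 (8.46e-06) and at day 10 by 2.10 (3.03e-09). The summed intensity of the 10 ventricular genes was 124767 to 136631 in control, 109616 to 124026 at day 3 and 125824 to 131276 at day 10. Most of it came from Myl2 and Myl3 (mean intensities 53004 and 55085), which lie at the top of the scale and could not register a share of other tissue. For the 16 further genes listed as atrial the sum was 31067 to 61599 in control and 62509 to 83544.5 at day 3. It was 87173.5 to 95266 at day 10 and 26774 to 62562 at day 28. Most of this sum came from Nppa and Clu (mean intensities 26411 and 16406), which were both higher at day 10.

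Sln is also made by skeletal muscle. Of 12 skeletal muscle markers tested, 9 were higher at day 3 (median 0.92) and 4 higher and 1 lower at day 10 (median 0.08), with a summed intensity of 3336 to 3928 in control, 22739 to 31391 at day 3 and 8461 to 15296 at day 10. Tnnt1, the slow skeletal troponin T, rose by 4.29 at day 3 (adjusted p = 8.14e-11) and 3.33 at day 10 (1.43e-09). Most of the summed intensity at these times came from Tnnt1, at 12023 to 22145 at day 3 and 5554 to 11918 at day 10. Myh1 and Myh4, the fast skeletal heavy chains, were below the median probe on every array. Conduction system markers had 0 called of 4 at day 3 (median 0.05) and 1 lower at day 10 (median -0.18), Tbx3, which fell by 1.37 (adjusted p = 3.24e-06). Isl1 was below the median probe on every array.

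Macrophage markers had 1 higher of 5 at day 3 (median 0.20) and 5 higher at day 10 (median 2.17). Their sums were 3979.9 to 11812.5 in control, 8692 to 17787 at day 3 and 37094 to 61598 at day 10, so that they were highest when Sln was lowest. Fibroblast markers had 0 higher and 1 lower of 7 at day 3 (median -0.24) and 4 higher at day 10 (median 0.87). Smooth muscle markers had 1 higher of 6 at day 3 (median -0.10) and 2 higher and 2 lower at day 10 (median -0.05). Endothelial markers had 0 of 5 called at day 3 (median 0.15) and 2 lower at day 10 (median -0.29). Of 2 epicardial and mesothelial genes tested 0 were called at day 3 (median 0.39) and 1 was lower at day 10 (median -0.43), with Msln, Upk1b, Krt19 and Lrrn4 below the median probe on every array. Lung and red blood cell markers had 0 called of 3 and of 2 at both times (medians 0.22 and 0.07 at day 3, 0.06 and -0.34 at day 10). Sftpb, Sftpa1, Sftpd and Scgb1a1 of the lung list were below the median probe on every array.

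Of 9 transcription factors of atrial and general heart muscle identity, 0 were higher and 5 lower at day 3 (median -0.65), and 0 were higher and 2 lower at day 10 (median -0.32). Mef2c, a muscle regulator, fell by 1.46 at day 3 (adjusted p = 1.75e-06). Gata4, a cardiac GATA factor, fell by 0.91 at day 3 (adjusted p = 0.000131) and by 0.42 at day 10 (0.0482). Hand2, a factor of heart development, fell by 1.15 at day 3 (adjusted p = 0.000154).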

How the data were processed

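The authors' deposited values are probe intensities on a linear scale from 19 Illumina arrays. Ranked within an array, the values were the same on every array, so they had been quantile-normalized. The program and any background subtraction are not given in the sources used here. A second table, not normalized, has 38 columns whose names match no sample label and was not used. The deposited intensity was corrected with limma's normexp (offset 50) and taken to log2. Probes under the 25th percentile of mean intensity (162.92) were left out, which kept 19273 of 25697 and all 9 of the 7 genes. Normexp was fitted to values already normalized. limma 3.58.1 under R 4.3.3 fitted 1 mean per group over 19 arrays (residual degrees of freedom 14, prior 9.66), with Benjamini-Hochberg adjustment over all probes tested. A gene with several probes is given by its brightest, and its other probes are named apart. Symbols came from the platform annotation (23978 probes with 1 symbol, 0 with several, 1719 with none). On simulated data with arrays drawn at these group sizes, 94% to 99% of 2-fold and 100% of 4-fold changes were recovered over 19273 probes of all spreads. No rate was computed for probes that vary as much as Myl7, Sln and Myl4, and a 3.83-fold difference of Myl7 at day 10 was not called.

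Correlations used log2 values with group means removed, with 100000 permutations within groups (Python 3.11.15, scipy 1.17.1). Named beside the 7 genes are Nppa, 6 reference genes (Pln, Atp2a2, Myl2, Myl3, Kcnj5 and Acvrl1), up to 3 genes of each of 11 marker and 7 pathway lists with the smallest adjusted p at day 3 or day 10, and the genes most like each of the 7 by r. Of the 3 genes of a list, some are left unnamed. Dynll2 and Hamp were named after their values were seen. The 7 genes and the lists were chosen with earlier results of these data known. The labels give the arrays as separate samples without saying that each is 1 animal, so p-values measure the spread between arrays, and their number limits the precision. Alternatives changed the background correction, filter, variance model, arrays and replicate block.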

Additional observations from a re-analysis of the deposited data

Results flagged for a closer look

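Among 27 sets of 4 or 5 arrays examined for a single array far from the rest, 2 stood out, and chance alone gives about 1 in 20. Kcnk3 in day 28 replicate 1 was at log2 10.71, above the other 3 arrays of that group by 0.889 of the group's whole range (critical value 0.829). Kcnj3 in day 28 replicate 3 was at log2 7.33, above its group by 0.853 of the range. Both arrays lie within the range of the controls for the gene concerned.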

How the results depend on the processing

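Of 138 recomputed counts and correlations, 130 kept their value or stayed within 1.5 times of it, as did the direction and call of 726 of 798 single-gene results, while 32 lost a call, 14 gained one and 26 changed sign, none of them past the threshold. With trended and robust variances 3 of 7 genes were called at day 3 against control and 3 at day 3 against day 2. With only the groups compared in the fit, 4 were called from day 10 to day 28. Leaving out 1 array at a time gave 0 to 0 calls at day 2, 2 to 6 at day 3, 1 to 4 at day 10 and 0 to 0 at day 28 against control, 3 to 5 for day 3 against day 2, 4 to 5 for day 10 against day 3 and 1 to 4 for day 28 against day 10. The arrays behind the extremes were day 3 replicate 2 (2 calls at day 3, 3 against day 2), day 10 replicate 2 (1 at day 10), day 10 replicate 3 (1 from day 10 to day 28) and day 28 replicate 2 (4). The correlation of Sln with Myl7 ran from 0.937 to 0.970. The day 3 rise of Myl7 was also not called with array weights (adjusted p = 0.106), no background correction (0.0539) or an offset of 16 (0.0739), and that of Sln with array weights (0.219). The day 10 fall of Sln was not called without background correction (adjusted p = 0.0553). The cause was not tested.

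Changes of sign were all of small differences. With controls 1 to 3 alone Kcnk3 at day 2 was -0.068. Myl4 at day 28 was -0.25 with controls 1 to 3 alone, -0.0024 without background correction, -0.062 with array weights and -0.32 with the replicate block. Leaving out 1 array moved the day 2 difference of Myl4 between -0.88 and 0.067 and of Kcnk3 between -0.0039 and 0.26. It moved the day 28 difference of Sln between -0.64 and 0.44, of Myl7 between -0.74 and 0.58, of Myl4 between -0.41 and 0.61 and of Bmp10 between -0.041 and 0.086. It moved Bmp10 at day 10 between -0.047 and 0.24 and from day 10 to day 28 between -0.22 and 0.067, and Kcnj3 from day 3 to day 10 between -0.13 and 0.17. Replicate numbers did not pair the arrays: at most 1 of 3 same-numbered pairs correlated above 0.1 in any comparison. In the fit with a replicate block, 0, 5, 4 and 0 genes were called at days 2, 3, 10 and 28 against control, 5 for day 3 against day 2, 4 for day 10 against day 3 and 3 for day 28 against day 10, while Sln with Myl7 had r = 0.95. Bmp10 and the third Dkk3 probe lay so near the lowest signals that a fall could not be measured and a rise could be understated.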

Other observations

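Day 3 replicate 2 was the extreme array for several of these genes: it had the highest Sln, Myl7, Myl4 and Mybphl of the 19 arrays and the lowest Kcnk3. Hamp was also highest there, at an intensity of 6537. On the first principal component over all probes it lay at 40.2, where the other day 3 arrays were at 4.24 and 16.6 and the day 10 arrays at 54.3 to 72.7. Among the probes with the widest spread inside the groups, S100a8 (rank 5, SD 1.10) and S100a9 (rank 7, SD 1.03), both calcium-binding proteins of neutrophils, and Hspa1a (rank 8, SD 1.02), an inducible heat shock protein, followed the atrial genes. These names were chosen after their values were seen.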
